A study of Rattus norvegicus with 5 samples.

Results

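Ch25h, the 2 liver X receptor genes and 7 genes that these receptors are known to control were followed in primary rat hepatic stellate cells, which store vitamin A in the liver and turn into matrix-producing myofibroblasts after injury or in culture. The 10 genes were taken by gene symbol from the platform annotation, which gives them 11 of 22523 probes, 2 of them for Lpcat3. They were chosen by the measured change between calcitriol and vehicle, with the fall of Ch25h already known, so their values in that comparison are described here without p-values, as are those of the other comparisons on the same arrays. Where members past the calling threshold are counted, the count is a description too. Of the 11 probes, 10 (9 genes) were detected on at least 1 array, at a detection p-value under 0.01, and the probe of Mylip was detected on none. The Illumina rat bead arrays, 5 in all, carried RNA from cells of male Wistar rats aged 10 weeks. The groups were cells at day 3 given calcitriol (1,25(OH)2D3, the hormonal form of vitamin D) at 100 nM for 24 h (2 arrays), cells at day 3 given vehicle (2 arrays) and 1 array labelled freshly isolated, with no treatment. The purpose stated with the series was to learn what vitamin D ligands do to activated stellate cells, and the question here was whether lower Ch25h went with lower targets of the liver X receptors. The labels do not say that the arrays of a group came from separate animals or cultures, so p-values measure only the spread between these arrays.

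Ch25h encodes cholesterol 25-hydroxylase, which adds a hydroxyl group to cholesterol and yields 25-hydroxycholesterol, an oxysterol. Oxysterols are ligands of the liver X receptors (LXRs), which bind DNA as partners of the retinoid X receptors and switch on genes for cholesterol export and fatty acid synthesis. 25-Hydroxycholesterol also holds the transcription factor SREBP2 in the endoplasmic reticulum and so lowers cholesterol synthesis. In macrophages Ch25h is known as a gene that interferons and Toll-like receptor ligands induce.

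Promoter sequences were available from RefSeq (GRCr8) for 9 of the 10 genes, with 12 start sites between them. The gene without a sequence was Abcg1, so its promoter was not searched for any motif. These are shown for Ch25h, for Abca1, which holds the only match to an LXR element form that was searched, and for Srebf1 and Scd2. Srebf1 and Scd2 were lower together with Ch25h. Each line gives the 250 bases before the start site, 5′ to 3′ in the direction of the gene, and capitals mark motif matches. Srebf1 has 2 start sites in the table, and the more downstream one is shown.
Ch25h, chr1:241429367-241429616, minus strand: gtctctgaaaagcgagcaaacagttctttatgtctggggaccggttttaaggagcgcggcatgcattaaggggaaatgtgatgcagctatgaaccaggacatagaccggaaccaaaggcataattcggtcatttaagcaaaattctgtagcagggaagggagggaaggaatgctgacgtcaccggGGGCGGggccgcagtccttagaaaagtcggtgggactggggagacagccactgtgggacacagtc
Abca1, chr5:72596474-72596723, minus strand: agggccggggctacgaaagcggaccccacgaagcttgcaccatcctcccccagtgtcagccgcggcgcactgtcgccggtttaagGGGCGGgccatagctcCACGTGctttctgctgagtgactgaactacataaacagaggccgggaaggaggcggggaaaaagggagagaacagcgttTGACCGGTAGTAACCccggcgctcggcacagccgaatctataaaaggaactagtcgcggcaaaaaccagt
Srebf1, chr10:45519011-45519260, minus strand: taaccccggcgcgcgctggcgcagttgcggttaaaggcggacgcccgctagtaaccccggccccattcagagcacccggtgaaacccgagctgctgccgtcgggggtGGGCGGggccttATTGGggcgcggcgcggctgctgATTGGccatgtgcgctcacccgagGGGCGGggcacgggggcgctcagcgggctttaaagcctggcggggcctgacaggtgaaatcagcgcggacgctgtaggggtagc
Scd2, chr1:253118127-253118376, plus strand: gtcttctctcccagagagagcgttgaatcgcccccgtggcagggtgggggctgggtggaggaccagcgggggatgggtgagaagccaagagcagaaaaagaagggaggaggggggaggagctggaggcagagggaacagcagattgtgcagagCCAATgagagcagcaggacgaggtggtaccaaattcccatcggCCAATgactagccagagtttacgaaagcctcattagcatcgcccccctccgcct

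The motifs were searched on both strands. A form made of GGTTACT, any 2 bases and CGGTCA, which the LXR elements known from the mouse Abca1 and Srebf1 promoters share, was found in Abca1 as its reverse complement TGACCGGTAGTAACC, 70 to 56 bases before the start. It was found in 2 of the 33469 promoters of the table (0.00598% in windows of 300 bases). The textbook LXR element, a direct repeat of AGGTCA spaced by any 4 bases, matched none of the 9 genes and 0.00598% of all promoters. A single AGGTCA, which also lies within that repeat, matched none of the 9 genes and 16.2% of all promoters. The sterol regulatory element form TCACNCCAC, a binding form of the SREBPs, matched none of them and 1.12% of all. The E-box CACGTG matched Abca1 and 6.42% of all promoters. The GC box GGGCGG matched 6 of the 9 genes (Abca1, Apoe, Ch25h, Lpcat3, Mylip and Srebf1). By promoter that was 8 of the 12 start sites, beside 33.1% of all promoters. The inverted CCAAT box ATTGG matched 5 genes (Apoe, Lpcat3, Mylip, Scd2 and Srebf1). By promoter that was 7 of the 12 start sites, beside 37.5% of all promoters. Variants that differ from a motif at a fixed base were not counted. A match or its absence describes only the letters in these windows.

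**Figure D1:**
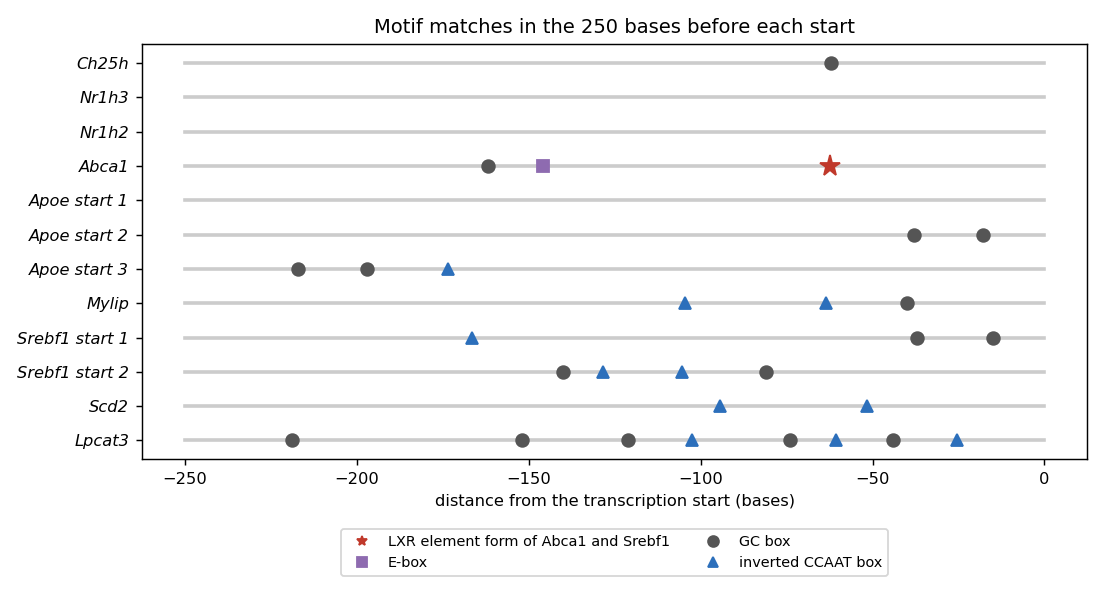
Motif matches in the 250 bases before each of the 12 start sites, with the distance from the start in bases on the x axis and 1 line per start site. The match to the LXR element form lies in Abca1, 70 to 56 bases before its start, and Nr1h3 and Nr1h2 hold no match to any of the motifs.

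The arrays had median intensities of 110.3 to 121.3 units and 8316 to 9112 detected probes, and 9737 probes detected on at least 1 array were tested. Cyp24a1 encodes the enzyme that inactivates vitamin D and is switched on by the vitamin D receptor, so it was used to check the treatment. Its intensity was 509.9 and 590.7 on the calcitriol arrays, 105.2 and 84.4 on the vehicle arrays and 381.9 on the array labelled freshly isolated. It was thus detected on both calcitriol arrays, on neither vehicle array, and on the array whose label gives no treatment. The source of that level was not tested, and the array is called here by its label only.

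Ch25h was the member with the largest change. Its deposited intensity was 263.3 and 186.0 on the calcitriol arrays, 2530 and 1428 on the vehicle arrays and 154.8 on the array labelled freshly isolated. Both vehicle arrays were high, both calcitriol arrays lay far below them, and the array labelled freshly isolated was lowest. Its detection p-value there was 0.0133, above the limit of 0.01. On the log2 scale after background correction and quantile normalization the values were 7.59 and 6.70 with calcitriol, against 11.25 and 10.78 with vehicle. The change was -3.87 ± 0.33 (SE, n = 2 per group), or 14.6-fold lower with calcitriol, and -3.27 (log2) without background correction. Leaving out calcitriol array 1 or 2 gave log2 changes of -4.31 and -3.42. In RNA from a whole culture, fewer cells that express a gene cannot be told apart from less RNA of it per cell.

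The receptors themselves differed in behaviour. Nr1h3 encodes LXRα, the form found mainly in liver, fat and macrophages. Its intensity was 1106 and 1151 with calcitriol, 1683 and 1462 with vehicle and 1460 on the array labelled freshly isolated. After normalization both calcitriol arrays (10.07 and 9.94) were below both vehicle arrays (10.63 and 10.81), with a log2 change of -0.72 ± 0.14, or 1.65-fold lower. Nr1h2 encodes LXRβ, the form present in most tissues. Its log2 values were 9.51 and 9.78 with calcitriol and 9.68 and 10.01 with vehicle, so that the groups overlapped and the change of -0.20 ± 0.18 was close to its error. With scaling to the array median in place of quantile normalization the changes were -0.51 for Nr1h3 and -0.01 for Nr1h2. That scaling moved the median change of all tested probes to 0.17, against 0.00 with quantile normalization, so values under it are read relative to 0.17.

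Of the cholesterol exporters, Abcg1 was lower with calcitriol and Abca1 was not. Abcg1 passes cholesterol to high-density lipoprotein particles. Its intensity was 1560 and 1771 with calcitriol, 4717 and 3757 with vehicle and 1800 on the array labelled freshly isolated. The groups were far apart, and the array labelled freshly isolated lay beside the calcitriol arrays. The log2 change was -1.62 ± 0.13, or 3.08-fold lower, and -1.39 with scaling to the array median. Abca1, which loads cholesterol onto apolipoprotein A-I and holds the LXR element form printed above, had intensities of 1608 and 1765 with calcitriol, 1393 and 1012 with vehicle and 1741 on the array labelled freshly isolated. Both calcitriol arrays were above both vehicle arrays, the opposite order from Abcg1. The log2 change was 0.31 ± 0.13, or 1.24-fold higher, and 0.53 with scaling to the array median.

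The other targets in cholesterol handling moved little or were not measured. Apoe, the apolipoprotein that macrophages and liver secrete to carry lipid, had log2 values of 12.90 and 12.91 with calcitriol and 12.91 and 13.00 with vehicle. The change was -0.05 ± 0.13, smaller than its error, and 0.20 with scaling to the array median, close to that scaling's shift of all probes. Mylip encodes a ubiquitin ligase, also called IDOL, that marks the LDL receptor for breakdown. Its intensity was 90.5 and 89.7 with calcitriol, 116.1 and 95.0 with vehicle and 98.4 on the array labelled freshly isolated. Detection p-values of Mylip were 0.127 or more on every array, so that no fold is given.

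Among the lipid synthesis genes, Srebf1 and Scd2 were lower with calcitriol by nearly the same factor. Srebf1 encodes SREBP1, whose 1c form is an LXR target and switches on fatty acid synthesis. Its intensity was 443.4 and 539.0 with calcitriol, 887.5 and 706.6 with vehicle and 572.3 on the array labelled freshly isolated. Both calcitriol arrays were below both vehicle arrays, and the log2 change was -0.98 ± 0.14, or 1.98-fold lower. Scd2 encodes a stearoyl-CoA desaturase, which makes monounsaturated fatty acids. Its intensity was 1712 and 2132 with calcitriol, 3666 and 2673 with vehicle and 2317 on the array labelled freshly isolated. The groups did not overlap, and the log2 change was -0.98 ± 0.13, or 1.97-fold lower. Scaled to the array median instead, Srebf1 had a log2 change of -0.80 and Scd2 one of -0.75.

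Lpcat3, which places polyunsaturated fatty acids into membrane phospholipids, was measured by 2 probes. The brighter one had log2 values of 10.83 and 10.89 with calcitriol and 10.99 and 10.79 with vehicle, and these overlapped. The dimmer one had 8.88 and 8.87 with calcitriol and 8.96 and 8.98 with vehicle, which did not overlap but lay close together. The log2 changes were -0.03 ± 0.14 and -0.09 ± 0.12, each smaller than its error. With scaling to the array median they were 0.18 and 0.08, beside 0.17 for the median of all tested probes. Within the targets the picture was mixed, with Abcg1, Srebf1 and Scd2 lower by 1.97-fold or more, Apoe and Lpcat3 within their error, and Abca1 higher by 1.24-fold.

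**Figure D2:**
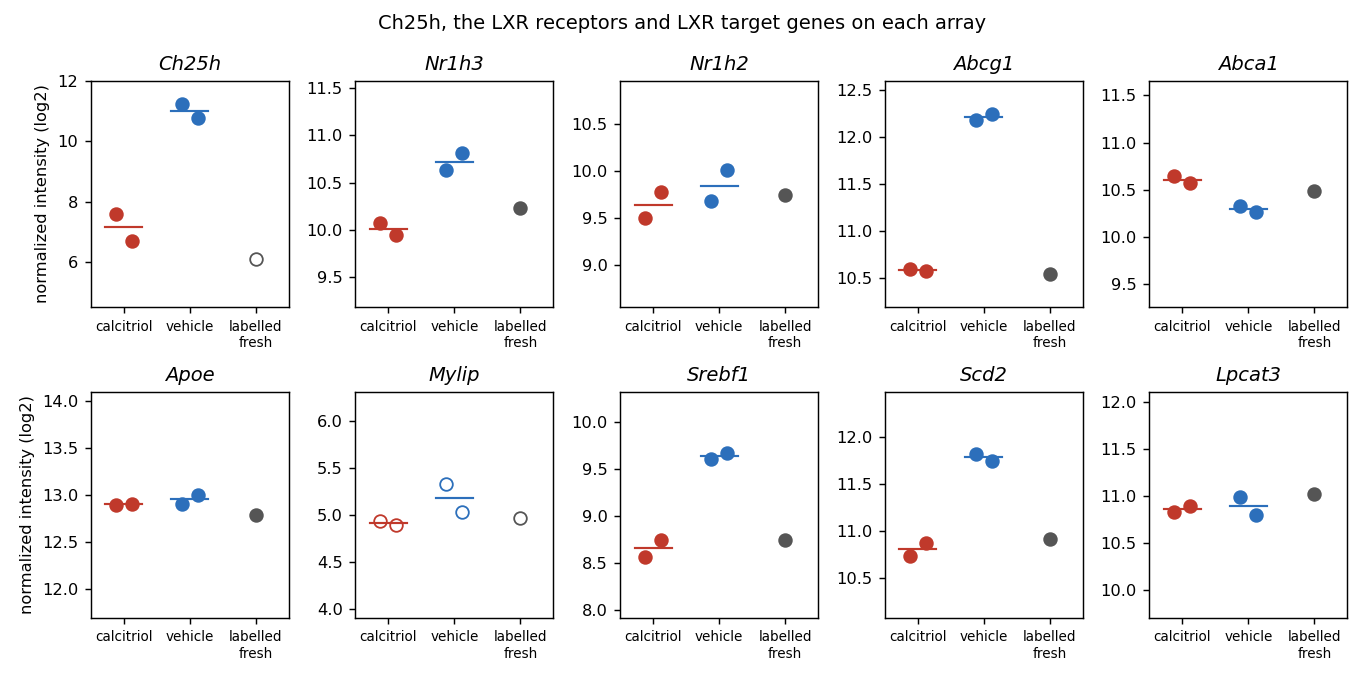
Normalized log2 intensity of each gene on the 5 arrays, with 1 point per array, a bar at the mean of groups with 2 arrays, and open points where the probe was not detected. The axes of all genes but Ch25h span the same range of log2 units. Ch25h, Nr1h3, Abcg1, Srebf1 and Scd2 were lower on both calcitriol arrays than on both vehicle arrays, and Abca1 was higher.

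In limma, with adjustment over all 9737 probes, 4 of the 10 detected member probes were called lower at an adjusted p under 0.05 and 0 higher, where 0.657% of all probes were called lower and 1.17% higher (1.83% in either direction). The 4 were Ch25h, Abcg1, Srebf1 and Scd2. Since genes were picked with these calls known, the count supports nothing. Counted by arrays alone, 6 of the 10 probes were lower on both calcitriol arrays than on both vehicle arrays (24.4% of all probes), and 1 was higher (23.3% of all), together 7 of 10 against 47.7% of all. Without calcitriol array 1 or 2 none of the 9737 probes was called, and without vehicle array 1 or 2 the called ones were Abcg1 and Ch25h.

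**Figure D3:**
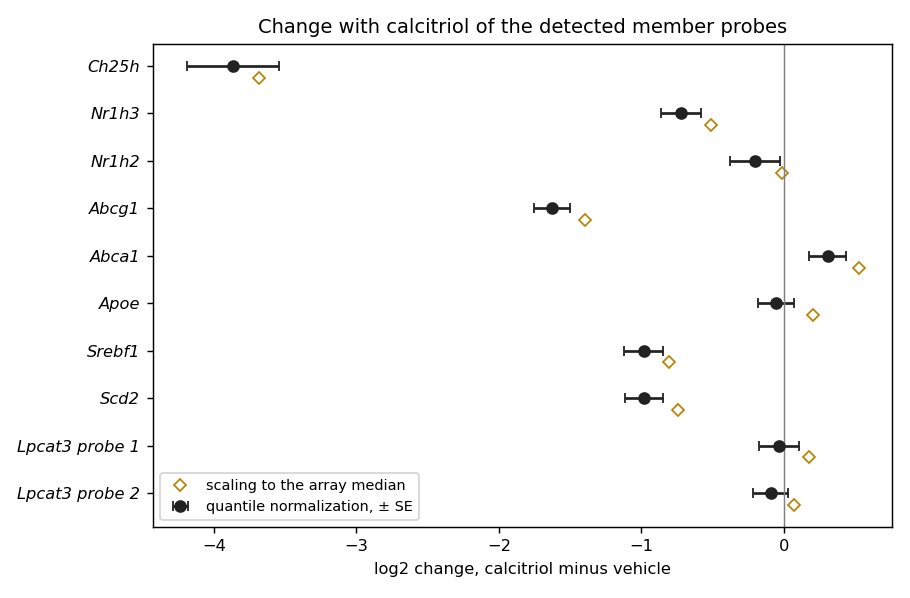
Log2 change of the 10 detected member probes, calcitriol minus vehicle, with filled points and standard errors from the fit to quantile normalized values and open diamonds for scaling to the array median. Ch25h stands at -3.87 and Abcg1 at -1.62, and the values of Apoe and both Lpcat3 probes lie below 0 with quantile normalization and above 0 with the other scaling. That scaling moved the median change of all tested probes to 0.17, so the diamonds are read relative to 0.17.

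The comparison with the array labelled freshly isolated uses the same vehicle and calcitriol arrays, so its values stand beside those above and are not independent of them. With vehicle, Ch25h stood at least 29.1-fold above that array, a lower bound because the probe was not detected there. The bound takes the mean of the brighter group against the lowest detected level on the dimmer array, or the probe's own level if higher. It holds for quantile normalized values after background correction, where the log2 difference was 4.94 ± 0.40. The log2 difference was 3.88 without background correction or with the authors' value table, and 4.76 with scaling to the array median. Abcg1 was 3.18-fold higher with vehicle (log2 difference 1.67 ± 0.15, SE, 2 arrays against 1), Srebf1 1.86-fold (0.90 ± 0.17), Scd2 1.82-fold (0.87 ± 0.16) and Nr1h3 1.41-fold (0.50 ± 0.17). Abca1 was again the gene of opposite sign, at -0.19 ± 0.16. Ch25h and Abcg1 were called in limma, 2 of 10 member probes, both higher with vehicle, where 1.53% of all probes were called (0.483% higher, 1.05% lower), and without calcitriol array 1 or 2, which enter this fit only through the spread, no probe was called. This count, too, supports nothing, since it rests on the vehicle arrays used in the choice.

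Set against the same array, the calcitriol arrays were close to it for most members. The log2 difference, calcitriol minus the array labelled freshly isolated, was 0.04 ± 0.15 for Abcg1, -0.09 ± 0.17 for Srebf1, -0.11 ± 0.16 for Scd2, -0.22 ± 0.17 for Nr1h3 and 0.12 ± 0.16 for Abca1. Ch25h had the largest difference of the members, 2.00-fold higher by the bound described for vehicle, taken from the mean of both calcitriol arrays. The log2 difference of 1.07 ± 0.40 was 0.63 without calcitriol array 1 and 1.52 without array 2. Without background correction that difference was 0.61. Both 0.61 and 0.63 lie below the bound, so it does not hold under those settings. In limma 0 of the 10 probes were called, as were 0% of all probes, and at an unadjusted p under 0.05 there were 1 of the 10 (Ch25h) and 649 of the 9737. The levels of the vehicle arrays are the ones that stand apart for Ch25h, Abcg1, Srebf1 and Scd2, as the plot of the 3 comparisons shows. For Nr1h3 the array labelled freshly isolated (normalized log2 value 10.22) lay between the calcitriol and the vehicle arrays. Its deposited intensity for Nr1h3, 1460, was close to the 1462 of vehicle array 2.

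**Figure D4:**
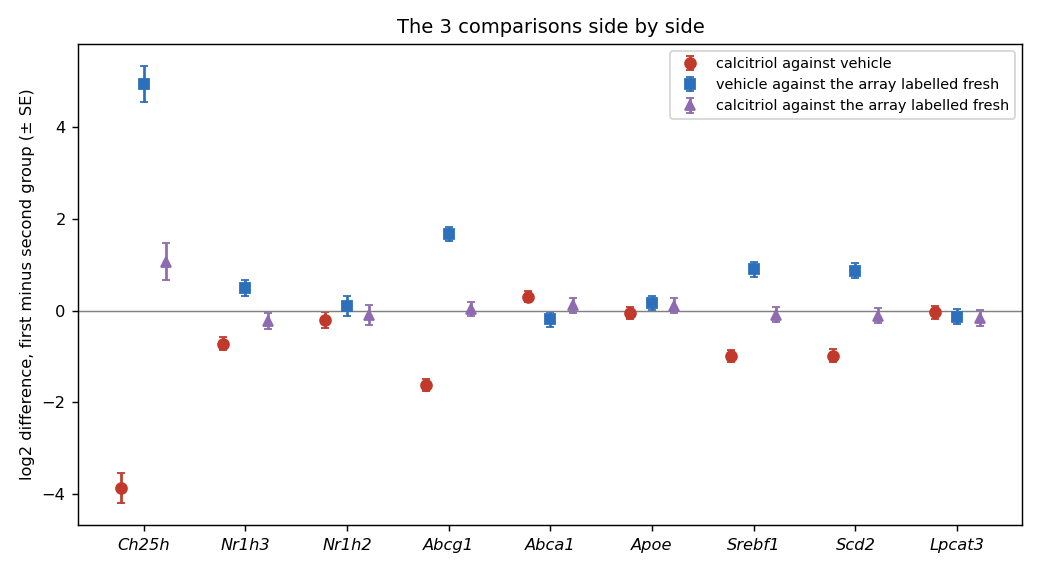
Log2 differences of the 9 detected genes in the 3 comparisons, with standard errors (for Lpcat3, the brighter probe). The comparisons share arrays. For Ch25h the values are -3.87, 4.94 and 1.07, and for Abcg1 they are -1.62, 1.67 and 0.04.

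Other known LXR targets outside the 10 genes were taken from a list written down from general knowledge of the pathway. Earlier results of these data were known by then, so the list is not an independent check. Of 14 such genes with a detected probe, 0 were called in limma with calcitriol in either direction (5 at an unadjusted p under 0.05, a level that 1541 of the 9737 probes reached). Their median log2 change was -0.18, beside 0.00 for all probes, and it was -0.02, beside 0.17, with scaling to the array median. The values were below 0 for 9 genes and above 0 for 5. Without background correction 2 genes of this list were called, 1 higher and 1 lower. Plin2, which coats lipid droplets, had -0.60 ± 0.13 (adjusted p = 0.108 in limma), the lipoprotein lipase gene Lpl had -0.44 ± 0.15 (adjusted p = 0.244) and the desaturase Fads2, detected on 1 vehicle array only, had -0.38 ± 0.13. Mertk, a receptor for the uptake of dying cells, had the value furthest above 0 in the list, 0.68 ± 0.14 (adjusted p = 0.101). The phospholipid transfer protein Pltp had -0.24 ± 0.13 for its brighter probe and -0.46 for the other.

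Genes that make, break down or bind oxysterols were not called either. Of 6 detected, limma called 0, and an unadjusted p under 0.05 was reached by 0, with a median log2 change of 0.05. Hsd3b7, a bile acid synthesis enzyme that acts on 7α-hydroxylated sterols, had -0.34 ± 0.15, and Cyp7b1, which 7α-hydroxylates that oxysterol, had 0.22 ± 0.18. Cyp27a1, another side-chain hydroxylase of cholesterol, had -0.04 ± 0.15. Among 12 detected LXR partners and cofactors 0 passed (2 at an unadjusted p under 0.05, median 0.03). The corepressor gene Nrip1 had 0.45 ± 0.16, the deacetylase Hdac3 -0.20 ± 0.14 and the corepressor subunit Gps2 -0.20 ± 0.16, while Ppard was not detected on any calcitriol or vehicle array.

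The cholesterol synthesis pathway, which 25-hydroxycholesterol restrains through SREBP2, had small values in both directions. Of 17 detected genes of sterol synthesis and uptake 0 were called in limma, and 2 had an unadjusted p under 0.05. Their median log2 change was 0.04, or 0.24 with scaling to the array median, beside 0.00 and 0.17 for all probes. Values were above 0 for 11 genes and below 0 for 6, between -0.32 and 0.43. Stard4, a cytosolic sterol carrier, had 0.43 ± 0.13 (adjusted p = 0.202), the thiolase Acat2 had 0.41 ± 0.15, the isomerase Idi1 had 0.30 ± 0.14 and Nsdhl, a later enzyme of the pathway, had -0.32 ± 0.15.

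Of 7 detected genes for the processing of SREBPs 0 passed (1 at an unadjusted p under 0.05, median 0.16). The ubiquitin ligase gene Rnf139 had 0.80 ± 0.19 (adjusted p = 0.135), and the protease genes had 0.42 ± 0.21 (Mbtps2) and -0.16 ± 0.14 (Mbtps1). Scap, the sterol sensor that escorts the SREBPs, had 0.16 ± 0.14. Without background correction, and also with scaling to the array median, 1 gene of this list was called, as higher. Among 12 detected genes of cholesterol transport and storage 0 passed (2 at an unadjusted p under 0.05, median -0.07). Scarb1, the receptor for high-density lipoprotein, had -0.52 ± 0.13 (adjusted p = 0.138) and the ester hydrolase Nceh1 had -0.56 ± 0.20, whereas Lcat had 0.33 ± 0.13 and the sterol carrier Stard3 had 0.34 ± 0.15.

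Genes known to be induced by interferons or to belong to Toll-like receptor signalling, the stimuli that induce Ch25h in macrophages, moved in both directions. Of 15 detected, 2 rose and 1 fell in limma, where 1.83% of all probes were called in either direction. The list was chosen with earlier results of these data known, so its calls and p-values are a description. Oasl, an antiviral gene, rose 1.86-fold (0.89 ± 0.13, adjusted p = 0.0362), and Tlr2, a receptor for bacterial lipoproteins, rose 1.86-fold (0.90 ± 0.13, adjusted p = 0.0376). Tlr7, a receptor for single-stranded RNA, fell 2.37-fold (-1.25 ± 0.18, adjusted p = 0.0375). Tlr4, the endotoxin receptor, had 0.76 ± 0.13 (adjusted p = 0.0562). The median of the list was 0.15, beside 0.00 for all probes, and leaving out any 1 of the 4 arrays left 0 of its genes called.

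**Figure D5:**
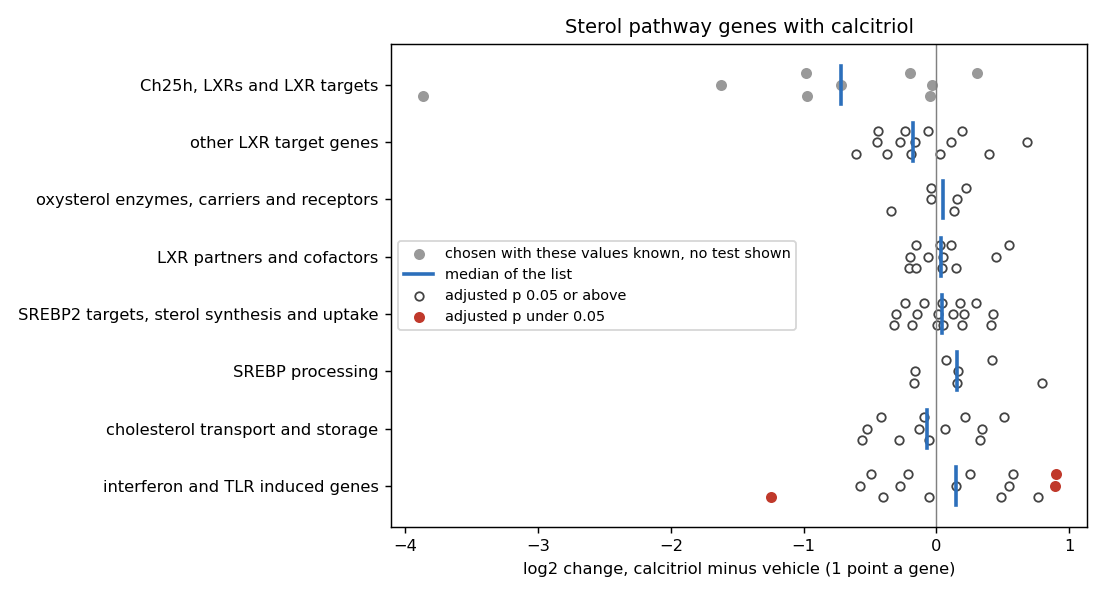
Log2 change with calcitriol of the detected genes in each list, 1 point per gene, with a bar at the list's median. Filled red points are genes at an adjusted p under 0.05 in limma, and the top row is shown without a test. Outside that row the 3 called genes, Oasl, Tlr2 and Tlr7, are all in the interferon and Toll-like receptor list.

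Markers of other liver cells were set beside these values, because macrophages also express Ch25h, Abcg1, Abca1, Apoe and Nr1h3. Of 19 macrophage markers with a probe, 18 were detected on all 5 arrays. Their summed normalized intensity was 114515 and 118433 units with calcitriol, 108951 and 117198 with vehicle and 119231 on the array labelled freshly isolated, so the groups overlapped. Of these markers 1 was called, Ptprc, the leukocyte surface phosphatase, which fell 2.35-fold (adjusted p = 0.0380 in limma). Of the 19 macrophage markers 8 had values above 0 with calcitriol and 11 below, and the median log2 change was -0.02. Of 13 stellate cell markers 9 were detected on all arrays, Gfap, Ngfr and Rgs5 on none, and 0 were called, with sums of 66317 and 73368 with calcitriol, 71805 and 66234 with vehicle and 71603 on the array labelled freshly isolated.

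In the hepatocyte, endothelial and biliary marker sets most of each sum came from 1 bright gene. Of 16 hepatocyte markers 12 were detected on no array, Alb, Ttr and Hnf4a among them. The hepatocyte sums were 6258 and 6454 with calcitriol, 10775 and 10789 with vehicle and 6310 on the array labelled freshly isolated. Without Arg1, which macrophages also express and which fell 2.08-fold (adjusted p = 0.0258 in limma), they were 2480 and 2295 with calcitriol, 2617 and 2419 with vehicle and 2470 on the array labelled freshly isolated, so the calcitriol and vehicle arrays overlapped. Of the 4 hepatocyte markers tested 0 had values above 0 and 4 below, the median log2 change was -0.26 and 1 was called. Ass1, another of them, had -0.40 ± 0.16. Of 9 sinusoidal endothelial markers 5 were detected on all arrays and Cdh5 on none, and the sums were 5915 and 6243 with calcitriol, 8037 and 7754 with vehicle and 4609 on the array labelled freshly isolated. Most of that gap was Fcgr2b, which macrophages also express (log2 change -0.50 ± 0.14, adjusted p = 0.168 in limma). Without Fcgr2b the sums were 2446 and 2392 with calcitriol, 2687 and 2762 with vehicle and 1796 on the array labelled freshly isolated. The calcitriol arrays thus stayed below the vehicle arrays. Of the 8 endothelial markers tested 4 had values above 0 and 4 below, the median was -0.01 and 0 were called. Of 4 biliary markers Epcam and Krt19 were detected on no array, and the sums were 22487 and 21174 with calcitriol, 25306 and 25088 with vehicle and 21169 on the array labelled freshly isolated. Nearly all of this was Spp1 (-0.21 ± 0.13), while Krt7 had 0.19 ± 0.17, and 0 were called. Of 12 lymphocyte markers 5 were detected on no array (Cd3d, Cd3g, Cd79b, Gzmb and Ms4a1). The lymphocyte sums were 1380 and 1241 with calcitriol, 923 and 918 with vehicle and 1221 on the array labelled freshly isolated. Without Cd8a, the brightest of these markers, they were 955 and 938 with calcitriol, 756 and 704 with vehicle and 867 on the array labelled freshly isolated. With calcitriol the lymphocyte marker Ptprcap stood at least 2.67-fold above vehicle (adjusted p = 0.00725 in limma). That bound holds for quantile normalized values after background correction. The deposited intensities of Ptprcap were 248.8 and 280.6 with calcitriol and 134.6 and 122.7 with vehicle. Of the 7 lymphocyte markers tested 7 had values above 0, the median log2 change was 0.24 and 1 was called. The part of these cells in the levels of Ch25h and the LXR genes was not tested.

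The patterns most like those of Ch25h and Abcg1 were sought among 582 probes of other named genes whose log2 values spanned at least 1 unit over the arrays. For Ch25h the highest Pearson correlations over the 5 arrays, given as a description, were those of Itga4 (r = 0.997), Atp6v0d2 (0.997), Fcgr3a (0.997), Arhgap25 (0.996) and Exo5 (0.992). For Abcg1 they were those of Flrt3 (0.999), Sgk1 (0.998), Chst12 (0.997), Arg1 (0.996) and Cxcr4 (0.995). With 5 arrays in 3 groups such values are common, and 44 probes had r over 0.95 with Ch25h and 45 with Abcg1. The genes like Ch25h changed less than it did, between -1.32 (Exo5) and -0.71 (Fcgr3a) on the log2 scale with calcitriol.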

How the data were processed

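Per the labels, total RNA was made into biotin-labelled cRNA and hybridised to the arrays of 1 chip, and GenomeStudio 2011.1 is named in the submitters' processing notes. The deposited table gives, per the file headers, each probe's mean bead intensity, the count of beads, their standard error and a detection p-value. No aligner or genome build is given in the sources used here. The deposited value table holds intensities that rank as the signals do, and served as an alternative.

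Intensities went through neqc of limma 3.58.1 in R 4.3.3 (normexp with controls inferred from detection p-values, offset of 16, quantile normalization, log2), which understates changes of dim probes. Probes detected (p under 0.01) on at least 1 array were fitted with 1 mean per group over all 5 arrays (lmFit, eBayes; 2 residual degrees of freedom, prior 3.65). Calls are at a Benjamini-Hochberg adjusted p under 0.05 over 9737 probes, two-sided. The fit assumes that the single array labelled freshly isolated varied like the others. The number of arrays limits the precision. Chip positions differed between groups and cannot be told apart from them.

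All 11 member probes matched RefSeq genes by identifier and symbol. A listed gene with several probes is represented by the brightest. Members, lists and motifs were chosen with earlier results of these data known, so the p-values of listed genes and markers are given as a description. Genes named are all members, of each list up to 4 with the smallest p for calcitriol against vehicle, any singled out further after their values were seen (Pltp, Cyp27a1), the marker genes given by name, Cyp24a1, and the 5 probes most correlated with Ch25h and with Abcg1. The fit was tested on simulated data.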

Additional observations from a re-analysis of the deposited data

How the results depend on the processing

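Calls for calcitriol against vehicle numbered 178 (114 higher, 64 lower), those for vehicle against the array labelled freshly isolated 149, those for calcitriol against that array 0, and those among the other pathway genes 3. In the same order they were 488, 401, 30 and 9 without background correction and also with the authors' value table, 298 (237 higher, 61 lower), 276, 22 and 5 when scaled to the array median, and 684, 506, 51 and 11 with a variance trend. With only the groups compared, vehicle against the array labelled freshly isolated gave 0. Leaving out 1 array gave 0 to 83, 0 to 60, 0 and 0. With the replicate number as a block, 0 pathway genes passed, and of the members Abcg1 and Ch25h. Same-numbered calcitriol and vehicle arrays deviated with a correlation of -0.11 over probes. That shows no shared deviation, but with 2 arrays per group it cannot settle whether the arrays were prepared as pairs. The crossed pairing, chosen after seeing the data, called 4 members. Numbers of calls kept within 1.5 times without a filter and with detection on 2 arrays. Nr1h3 was also called without background correction, with the authors' value table and with a variance trend, and Srebf1 and Scd2 were not called with scaling to the array median. No called member changed sign under these alternatives; the cause of the differing counts was not tested. Signal over background limits Mylip, and Ch25h on the array labelled freshly isolated.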
